A study of Mus musculus with 16 samples.

Results

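The immunoglobulin kappa locus genes are the 166 genes, of 46517 gene identifiers in the deposited files, whose mouse symbol starts with Igkv or Igkj or equals Igkc. They comprise 160 variable (Igkv) segments, of which 100 are annotated as IG_V_gene and 60 as IG_V_pseudogene, 5 joining (Igkj) segments and the constant gene Igkc. All lie on chromosome 6 of GRCm38, between positions 67555497 and 70726966, a span of 3171 kb. The locus was chosen by its transcript levels, which had been seen to be higher in transgenic than in control libraries of these data, so levels in that contrast, and in the contrast of the same transgenic libraries with the knockout-labelled ones, are described with no test. Of the 166 members, 78 reached a rounded count of 1 in at least 1 library and 88 did not.

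RNA was measured in live CD4+CD8+ (double-positive) thymocytes, the stage at which developing T cells carry both coreceptors, sorted by flow cytometry from mice aged 6 to 7 weeks with 1 library per mouse. Every mouse had the NOD-AI4 background, that is, the diabetes-prone NOD strain with the transgenic T cell receptor of an autoreactive CD8 clone, so the controls carried that receptor too. The groups were 6 NOD-AI4 controls (3 males and 3 females), 5 NOD-AI4-Nfkbid-/- mice (4 males and 1 female) and 5 NOD-AI4-60A mice, which carry an Nfkbid transgene (3 males and 2 females). The promoter and the number of founder lines behind 60A are not given in the sources used here.

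Library totals lay between 17955743 and 35637813 estimated counts. Nfkbid, which encodes a nuclear IκB protein, stood at 114.7 to 309.6 counts per 1000000 counts (CPM) in the transgenic libraries and at 28.9 to 36.9 CPM in controls. It stood at 28.2 to 37.8 CPM in the libraries labelled as knockouts, and the difference from controls did not pass the edgeR test (log2 fold change 0.07, SE 0.15, adjusted p = 0.78). The count covers the whole gene, so it does not check a deletion of part of it, and these libraries are called knockout-labelled throughout. The 15 markers of double-positive thymocytes summed to 9854 to 13171 CPM in every library, with Cd4, Cd8a and Rag1 among them at no less than 441.1 CPM. Control mice had identifiers of another series than the knockout-labelled and transgenic mice, so group and series of mice cannot be told apart in any contrast with controls.

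A kappa light chain is made from 1 Igkv segment joined to 1 Igkj segment by the RAG recombinase, and the joined exon is spliced to Igkc. Segments on the strand of Igkc join by deletion of the DNA between them, and segments on the opposite strand join by inversion. The locus rearranges in B cell precursors and is transcribed most in B cells and plasma cells, while T cells assemble receptor loci of their own. Unrearranged segments can also be transcribed at a low level, so a count in a segment does not by itself show a joined light chain.

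The joining segments are shown because each kappa chain uses 1 of them and none had a count here. All 5 were listed at 0 in all 16 libraries, so they give no joining usage. They are 38 to 39 bases long in the annotated transcripts of GRCm38 and lie on the plus strand from chr6:70722562-70722599 (Igkj1) to chr6:70723886-70723927 (Igkj5), and capitals mark TTCGG, searched on the transcribed strand only, found in 4 of the 5.
Igkj1: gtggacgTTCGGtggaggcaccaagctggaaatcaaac
Igkj2: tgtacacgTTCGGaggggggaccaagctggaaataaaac
Igkj3: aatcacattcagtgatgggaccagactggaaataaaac
Igkj4: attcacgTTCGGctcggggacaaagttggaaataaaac
Igkj5: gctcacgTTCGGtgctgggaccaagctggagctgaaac

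The 3′ ends of the most used variable segments show where these resemble each other and where they differ. The segment nearest in sequence to each is not printed, so these ends do not show how reads were divided. Each line gives the last 60 bases of the annotated transcript, read on its own strand, for the 7 segments with the largest mean share in transgenic libraries and for Igkv4-78, the segment with most counts in control replicate 1. Capitals mark the first match to TANTNNTGN on that strand, which includes the codons for tyrosine and cysteine that precede the last antigen-binding loop.
Igkv1-117: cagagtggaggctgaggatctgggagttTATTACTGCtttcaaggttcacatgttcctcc
Igkv1-135: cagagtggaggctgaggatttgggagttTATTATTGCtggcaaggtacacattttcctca
Igkv10-94: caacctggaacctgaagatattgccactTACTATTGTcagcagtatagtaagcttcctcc
Igkv6-32: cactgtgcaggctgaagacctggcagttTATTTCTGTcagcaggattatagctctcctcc
Igkv6-20: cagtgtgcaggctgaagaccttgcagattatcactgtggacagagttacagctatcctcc
Igkv5-45: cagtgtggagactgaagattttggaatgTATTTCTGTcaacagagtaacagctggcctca
Igkv12-46: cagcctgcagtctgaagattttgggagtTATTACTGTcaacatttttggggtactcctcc
Igkv4-78: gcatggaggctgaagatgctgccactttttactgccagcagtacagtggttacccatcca

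These letters were found in the last 60 bases of 97 of the 100 IG_V_gene segments (97%) and of 37 of the 60 pseudogenes (61.7%). In genome order away from Igkc the segments printed lie at chr6:70335841-70336507 (Igkv6-20), chr6:70074024-70074603 (Igkv6-32), chr6:69775750-69776344 (Igkv5-45), chr6:69764523-69765022 (Igkv12-46), chr6:69059690-69060224 (Igkv4-78), chr6:68704508-68704978 (Igkv10-94), chr6:68121046-68121827 (Igkv1-117) and chr6:67609713-67610508 (Igkv1-135), each with 2 exons. Igkv1-117 and Igkv1-135 lie on the plus strand with Igkc, and the other 6 lie on the minus strand.

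Igkc, the constant part shared by every kappa chain, was counted in all 16 libraries and was far higher in the transgenic ones. In the 5 transgenic libraries it held 566, 1023, 1721, 1304 and 1848 estimated counts in replicates 1 to 5, or 27.6, 40.0, 74.7, 69.3 and 88.0 CPM. In the 5 knockout-labelled libraries it held 30, 31, 18, 4 and 12 counts, or 1.27, 1.32, 0.811, 0.114 and 0.505 CPM. In controls it lay between 0.107 and 2.64 CPM with a median of 0.34 CPM. Every transgenic library was above every other library. The lowest transgenic value was 10.5 times the highest control value, which was that of control replicate 1, and 20.9 times the highest knockout-labelled value.

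The summed level of the 160 Igkv segments gave the same picture. It was 19.5, 31.2, 61.3, 51.4 and 65.6 CPM in transgenic replicates 1 to 5, from 399, 799.7, 1411, 966 and 1377 counts. It was 0.594, 0.809, 0.27, 0.17 and 0.631 CPM in the knockout-labelled libraries, from 6 to 19 counts, and 0.0534 to 2.11 CPM with a median of 0.303 CPM in controls, from 1 to 55 counts. The groups of transgenic and other libraries did not overlap, whereas the knockout-labelled values lay inside the range of the controls. In bulk RNA, fewer cells of a type that expresses the locus and less RNA per such cell cannot be told apart.

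The mean summed Igkv level was 45.8 ± 19.8 CPM (SD, n = 5) in transgenic libraries, 0.495 ± 0.266 CPM (SD, n = 5) in knockout-labelled libraries and 0.589 ± 0.768 CPM (SD, n = 6) in controls. The corresponding Igkc means were 59.9 ± 25.2, 0.804 ± 0.513 and 0.730 ± 0.973 CPM. The transgenic mean was thus 77.8 times the control mean for Igkv and 82.1 times for Igkc. Control replicate 1 alone held 55 of the 84 Igkv counts of the controls, and without it the ratios were 160.4 and 172.5. Against the knockout-labelled libraries the ratios were 92.5 and 74.5.

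**Figure D1:**
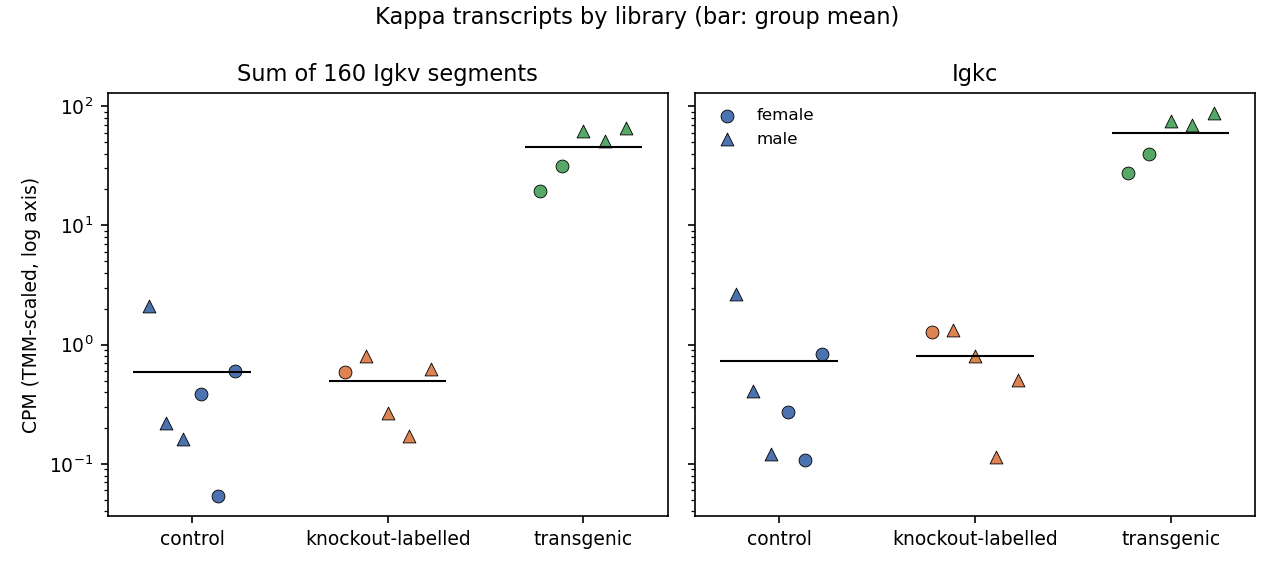
Summed level of the 160 Igkv segments (left) and level of Igkc (right) in each library, in TMM-scaled CPM on a log axis; circles are females, triangles are males and the bar is the group mean. The transgenic libraries lie between 19.5 and 65.6 CPM for Igkv and between 27.6 and 88.0 CPM for Igkc, and control replicate 1 is the highest of the other libraries in both plots.

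The knockout-labelled and control libraries were compared by a test. The choice of the locus did not use that contrast, but it used the levels of the same control libraries. The test is therefore not independent of that choice. On the log2(CPM + 0.1) scale the summed Igkv level was higher in knockout-labelled libraries by 0.23 (two-sided exact permutation test, p = 0.74) and Igkc by 0.49 (p = 0.55). Adjusted over these 2 relations both p-values were 0.74, where 462 relabellings allow a smallest p of 0.00216. Neither difference was larger than the spread between libraries. Without control replicate 1 the ratio of knockout-labelled to control means changed from 0.841 to 1.73 for Igkv and from 1.1 to 2.32 for Igkc.

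In the gene-by-gene fit, 5 of the 166 members passed the filter on low counts, namely Igkc, Igkv1-135, Igkv10-94, Igkv12-44 and Igkv6-32. Only Igkc also passed it when the transgenic libraries were left out. The other 4 passed it only through the transgenic libraries, so nothing is read from the lack of a call for them between knockout-labelled and control libraries. In that contrast edgeR called 0 of the 5 at an adjusted p of 0.05, beside 26.4% of the 14933 genes tested, and Igkc had an unadjusted p of 0.824. DESeq2 and limma-voom also called 0. The estimate for Igkc, from a model of counts with sex as a term, was a log2 fold change of -0.18 (SE 0.77), opposite in sign to the difference of log values above.

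All 5 tested members were higher in transgenic than in control libraries, beside 23% of all genes tested, and all 5 were higher than in knockout-labelled libraries, beside 1.07% of all genes. Nothing is read from these counts, since the first contrast chose the locus, the second shares its transgenic libraries, and 4 of the 5 passed the filter only because they were high there. The median log2 fold change of the 5 was 7.73 against controls and 7.02 against knockout-labelled libraries, with medians of 0.03 and 0 over all genes.

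Usage, the share of a library's Igkv counts in each segment, could be read in 6 libraries with at least 50 Igkv counts. These were the 5 transgenic libraries and control replicate 1; no knockout-labelled library reached that number, so usage was not compared between groups by a test. In the transgenic libraries 52 to 65 of the 160 segments had a count, and 75 had one in at least 1 of the 5. Of these, 36 were seen in all 5 libraries and held 82.9% of the transgenic Igkv counts. Another 13 were seen in 4, 13 in 3, 6 in 2 and 7 in 1, and 85 in none.

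Igkv1-117 was the segment with the largest mean share, and it varied most. It took 7.07%, 17.3%, 7.86%, 1.54% and 0.191% of Igkv counts in transgenic replicates 1 to 5, from 28.2, 138.2, 110.9, 14.9 and 2.6 estimated counts. It thus led transgenic replicate 2 and was nearly absent from transgenic replicate 5. Its mean was 6.79 ± 6.75% (SD, n = 5), so its place in the order does not stand apart from that of its neighbours.

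Igkv1-135, near the far end of the locus, led transgenic replicates 1 and 3. Its shares were 9.97%, 1.79%, 8.56%, 4.76% and 5.7%, from 39.8, 14.3, 120.8, 46 and 78.4 counts. Igkv10-94 took 3.74%, 5.32%, 7.53%, 1.9% and 7.52%, and ranked just behind the leading segments in transgenic replicates 2, 3 and 5. Both segments were therefore used in all 5 mice, with differences of several fold between mice.

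Igkv6-20 led transgenic replicate 4 with 108 counts, 11.2% of that library (95% Wilson interval 9.34 to 13.3%). In the other transgenic libraries it took 1%, 6.63%, 1.28% and 3.85%. Igkv5-45 led transgenic replicate 5 with 109.6 counts, 7.96% of that library (95% Wilson interval 6.67 to 9.54%), and took 1.4 to 5.17% elsewhere. The most used segment was thus Igkv1-135 in 2 of the 5 mice and a different segment in each of the other 3. These intervals, like all intervals here, cover counting error only, since reads without molecular identifiers are not independent molecules.

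Igkv6-32 took 6.77%, 5%, 1.28%, 5.49% and 5.95%. Igkv12-44 was the most even of the 10 segments with the largest mean share, at 3.1 ± 0.764% (SD, n = 5). Igkv12-46 had a mean of 4.1 ± 1.83%, Igkv10-96 of 3.42 ± 1.47% and Igkv6-15 of 2.53 ± 1.65%. The means of neighbouring segments in this order differed by less than their SD.

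Igkv8-24 had 18, 0, 17, 50 and 7 counts in transgenic replicates 1 to 5. It thus took 5.18% of transgenic replicate 4, while 0 of 799.7 counts in transgenic replicate 2 allows a share of up to 0.375%. Igkv2-137, the segment farthest from Igkc, had 1, 12.1, 6.1, 7.4 and 44.3 counts and is named only because the tie at 1 count behind Igkv4-78 and Igkv10-94 in control replicate 1 was broken by gene identifier. On the per-length TPM scale, the highest transgenic means were 15.9 TPM for Igkv10-94 and 14.4 TPM for Igkv1-135, beside 211.9 TPM for Igkc.

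**Figure D2:**
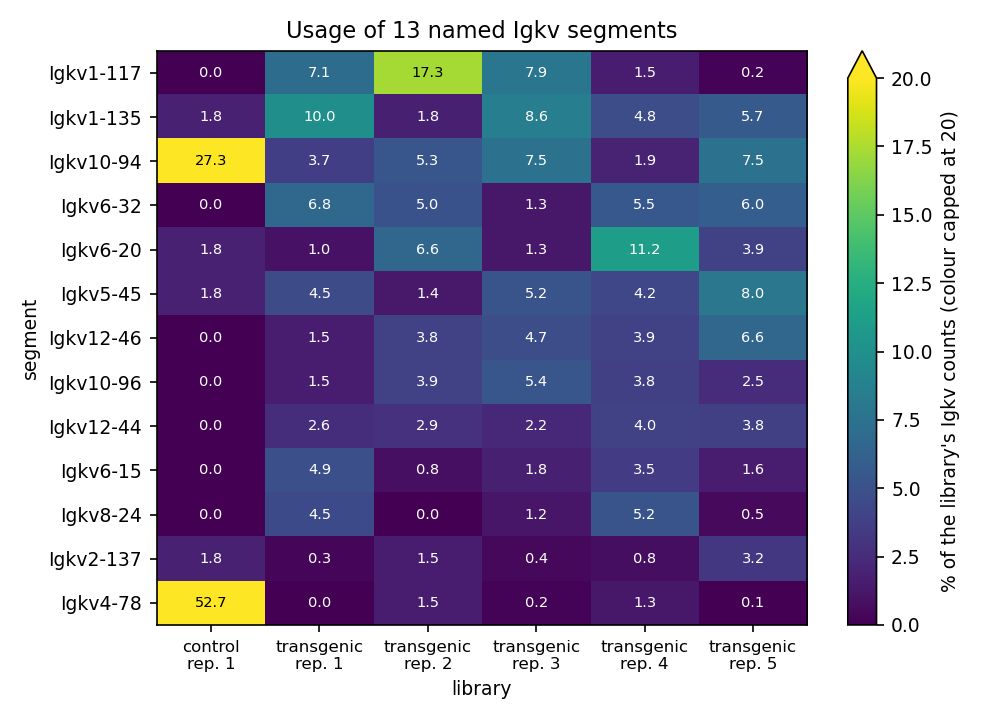
Share of each library's Igkv counts (percent, printed in each cell, colour capped at 20%) for 13 segments in the 6 libraries with at least 50 Igkv counts. Control replicate 1 has 52.7% of its counts in Igkv4-78 and 27.3% in Igkv10-94, whereas no cell of a transgenic library is above 17.3%.

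By the subgroup number in their symbols, which groups segments by sequence likeness, the Igkv1 subgroup took the largest mean share in transgenic libraries at 21.3 ± 7.06% (SD, n = 5), with 13 segments. Igkv6 followed with 14.6 ± 6.3% from 9 segments and Igkv4 with 11.4 ± 3.68% from 33 segments. Igkv12 took 10.8 ± 2.01% and Igkv10, with 3 segments, 8.63 ± 3.18%. The share did not follow the number of segments, since the 33 Igkv4 segments are 20.6% of all and the 18 Igkv13 segments, 16 of them pseudogenes, took 0.524 ± 0.643%. Igkv1 was at 28.5% and 28.3% in transgenic replicates 2 and 3 and at 14% and 14.6% in replicates 4 and 5, where Igkv6 was at 23.3% and 14.5%.

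Diversity was measured as the effective number of segments, the inverse of the chance that 2 counts drawn from a library fall in the same segment. It was 25.4, 18.3, 25.4, 26.8 and 27.3 in transgenic replicates 1 to 5, a mean of 24.6 ± 3.65 (SD, n = 5). Transgenic replicate 2, with its large share of Igkv1-117, was the lowest. On average the most used segment took 11.0 ± 3.73% of counts, 8 to 10 segments made up the first 50% and 28 to 35 segments the first 90%. The effective number of transgenic replicate 1, with the fewest counts, lay among those of replicates 3, 4 and 5.

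Control replicate 1 was far less diverse than any transgenic library, with an effective number of 2.91. It had 13 segments, of which Igkv4-78 took 29 of 55 counts, 52.7% (95% Wilson interval 39.8 to 65.3%), and Igkv10-94 took 27.3%. At a depth of 55 counts, the expected number of segments in the transgenic libraries was 26.8, 25.3, 26.9, 28.0 and 27.9, so control replicate 1 had fewer segments at equal depth as well. It is 1 library, and the difference was not tested. In transgenic libraries Igkv4-78 took 0.00468 to 1.52%.

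**Figure D3:**
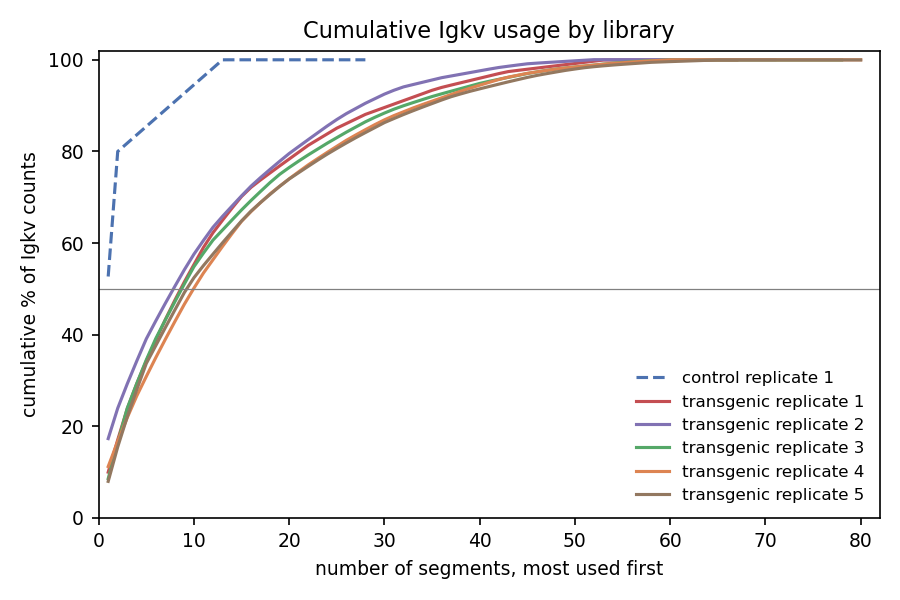
Cumulative share of Igkv counts (percent) against the number of segments, the most used first, for the 6 libraries with at least 50 Igkv counts; the grey line marks 50%. The transgenic curves cross 50% at 8 to 10 segments and control replicate 1 at its first segment.

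Transgenic libraries shared many segments but not their weights. The overlap of 2 usage profiles, the sum of the smaller of the 2 shares over all segments, was 46.8 to 65.3% over the 10 pairs, with a mean of 56.1%. The largest overlap was between replicates 4 and 5, both males, and the smallest between replicates 1 and 2, both females. Between 2 and 6 of the 10 most used segments were common to a pair. Across segments, the Pearson correlation of log2 shares within a pair was 0.71 to 0.85, where segments are not independent and the 2 libraries share annotation and segment sequence. Chi-square per degree of freedom between 2 profiles was 6.83 to 11.7. Over all genes it was 7.99 to 45.0 for the same pairs of mice. This measure grows with the counts per gene or segment, so the 2 ranges do not show which varied more between mice.

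The other control libraries and the knockout-labelled libraries held too few Igkv counts for a profile, and their segments are given pooled. The 6 controls held 84 counts in 24 segments, 23 of them also seen in transgenic libraries. The 5 knockout-labelled libraries held 60 counts in 21 segments, 19 of them also seen in transgenic libraries. Their most counted segment was Igkv19-93, with 13 of its 14 counts in knockout-labelled replicate 5. Igkv17-127 held 7 of the 19 counts of knockout-labelled replicate 2. Igkv5-45 held 5 of the 11 counts of control replicate 6 and 3 of the 14 of knockout-labelled replicate 1, where Igkv12-40 also held 3.

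Igkv14-118-2, annotated as a pseudogene, went the other way from most members. It had 6 counts in 3 control libraries and 5 counts in 2 knockout-labelled libraries, and no count in any of the 5 transgenic libraries. Igkv10-95 had 3 counts in 3 knockout-labelled libraries and did not reach a count in a transgenic library. Both were singled out after their values were seen, and these counts are close to the limit that a count of 0 allows, which is 3 counts per library.

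Along the locus, 75 Igkv segments lie on the strand of Igkc and 85 on the opposite strand. Segments that need inversion took 63.9 ± 6.24% of Igkv counts in the transgenic libraries (SD, n = 5), in the order 63.4%, 60.5%, 55.6%, 70.7% and 69.3% for replicates 1 to 5. Among IG_V_gene segments alone, the 62 inverted segments held 60.1% and the 38 direct segments 33.6% of all transgenic Igkv counts, or 9.61 and 8.76 counts per segment and library. The share of inverted segments was therefore close to their number. The 80 segments nearest Igkc took 52.0 ± 7.71% of counts and ranged from 41.9% in transgenic replicate 3 to 61.4% in transgenic replicate 4.

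**Figure D4:**
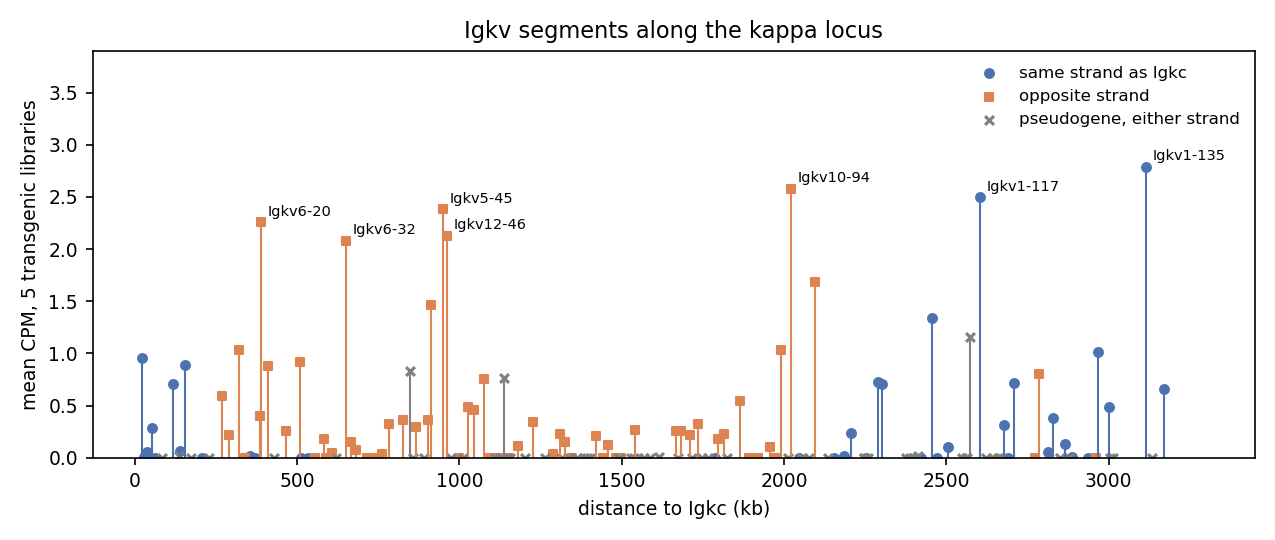
Mean level in the 5 transgenic libraries (CPM) of each Igkv segment against its distance to Igkc in kb; colours give the strand relative to Igkc and crosses mark pseudogenes. Levels above 2 CPM occur from Igkv6-20 at 389.9 kb to Igkv1-135 at 3115.9 kb, and most pseudogenes lie at 0.

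Most pseudogenes had no count in a transgenic library. Of the 60, 6 had a count in a transgenic library, against 69 of the 100 IG_V_gene segments, and together pseudogenes took 6.27 ± 1.53% of Igkv counts. Igkv2-116, Igkv12-40 and Igkv4-56 held nearly all of it, with 126.8, 90.4 and 88 counts over the 5 libraries, and each was seen in all 5. The other 3, Igkv3-8, Igkv4-77 and Igkv1-108, had 1 or 2 counts. All 6 matched TANTNNTGN in their last 60 bases. The annotation is that of the reference strain, C57BL/6J, and whether these segments are pseudogenes in NOD mice was not tested. The names, shares, zeros, positions and strands given for all segments rest on the same annotation, and the kappa locus of NOD mice may differ.

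Reads were often divided between segments, which limits the resolution of single segments. In transgenic libraries 58.4 ± 9.72% of Igkv counts belonged to segments with a count that was not a whole number. Of the 160 segments, 115 share a stretch of 50 bases with another segment, and 43 of the 44 detected segments with fractional counts did so. Igkv1-117 was 97.5% identical to Igkv1-110 over 401 aligned bases, Igkv10-94 was 97.1% identical to Igkv10-95, and Igkv5-45 was 98.4% identical to Igkv5-43. The shares of these segments are therefore uncertain between near-identical copies. Igkv4-78 was 96.9% identical to Igkv4-61 and had fractional counts in 4 transgenic libraries. Igkv6-32 and Igkv8-24 share no such stretch and had whole counts in all 5 transgenic libraries. Neither sign settles by itself whether reads were divided. Igkv2-137 shares no such stretch but had fractional counts in 4 transgenic libraries. Igkv6-20 was 98.7% identical to Igkv6-29 but had whole counts in all 5.

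Igkv and Igkc counts kept a nearly fixed proportion in the transgenic libraries. The Igkv count was 0.705, 0.782, 0.82, 0.741 and 0.745 times the Igkc count in replicates 1 to 5, a mean of 0.758 ± 0.0438 (SD, n = 5). Per length, on the TPM scale, the ratio was 1.23 ± 0.0644. The spread of this ratio was small beside the several-fold spread of the level itself. In control replicate 1 the count ratio was 0.797, and in the other libraries it rested on 1 to 31 counts of either kind.

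Heavy and lambda chain genes, the partners and alternatives of kappa, were examined in the same libraries. Kappa constant counts were 89.0, 95.6, 92.2, 97.5 and 94.6% of light chain constant counts (Igkc against the Iglc genes) in transgenic replicates 1 to 5. The Igkv count was 1.36 ± 0.055 times the count of the 185 heavy chain variable (Ighv) segments (SD, n = 5). The effective number of Ighv segments was 30.4 ± 3.47, and that of Igkv was lower by 5.78 on average and in 4 of the 5 libraries (exact sign-flip test, two-sided, p = 0.125, with 0.0625 the smallest p possible). With 5 libraries this test cannot reach 0.05.

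Of 17 other immunoglobulin genes, 8 were tested, and 5 of these (Igha, Ighg2c, Iglc1, Iglc2 and Iglv1) passed the filter on low counts only through the transgenic libraries, so their values are given with no test. Of the other 3 (Ighm, Ighd and Vpreb1), 2 rose in transgenic against control libraries, beside 23% of all genes, and 1 rose against knockout-labelled libraries, beside 1.07%. The latter was Ighm, the mu constant gene, which was high in every library, at 599.7 ± 46.8 CPM in transgenic, 392.1 ± 28.2 in knockout-labelled and 400.2 ± 23.6 in control libraries. It rose by 0.62 on the log2 scale against knockout-labelled libraries (SE 0.06, edgeR adjusted p = 4.1e-05). Between knockout-labelled and control libraries edgeR called none of these 3 (Ighm, Ighd and Vpreb1 had unadjusted p-values of 0.55, 0.918 and 0.74), and nothing is read from the other 5.

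Lambda and switched heavy chain genes were low outside the transgenic group, with exceptions. Iglc2, a lambda constant gene, was at 1.46, 0.937, 2.11, 0.638 and 1.19 CPM in transgenic replicates 1 to 5 and at no more than 0.0426 CPM in any other library. Ighg2b, a gamma constant gene, was at 1.66, 0.391, 9.55, 7.76 and 4.55 CPM in the transgenic libraries and at no more than 0.0766 CPM elsewhere. The transgenic values of both genes were thus above all others. Ighg2c was at 1.17 to 13.9 CPM in transgenic libraries and reached 0.438 CPM in controls. Igha, the alpha constant gene, overlapped between groups: it was at 1.12, 0.898, 5.95, 3.94 and 4.67 CPM in transgenic libraries, at 1.1, 0.639, 0.27, 0.0568 and 0.379 CPM in knockout-labelled libraries and at up to 0.804 CPM in controls.

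Jchain, which joins secreted IgM and IgA units, had the pattern most like that of the summed Igkv level among genes outside the immunoglobulin loci. Among 12645 such genes averaging 1 CPM or more, and over 16 libraries, its Pearson correlation of log2(CPM + 0.1) was 0.97. H2-Q7, a class I histocompatibility gene, followed with 0.95, AW112010 with 0.94, and Pla2g16 and Vwa5a with 0.93 each. All 16 points share the split between transgenic and other libraries, so these are descriptions. Within the transgenic libraries Jchain was at 3.71, 7.62, 14.5, 12.9 and 17.6 CPM, the same order of mice as Igkv and Igkc, and it was at no more than 0.919 CPM in any other library.

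B cell markers did not follow that order. Of 14, 10 were tested, and 6 of these also passed the filter without the transgenic libraries. Of the 6, 2 rose against controls (Cd79a and Cd79b, beside 23% of all genes) and 2 against knockout-labelled libraries (Cd79b and Ms4a1, beside 1.07%). Cd79b, a signalling chain of the B cell receptor, was at 4.13 ± 1.93 CPM in transgenic, 1.63 ± 0.205 CPM in knockout-labelled and 2.89 ± 0.774 CPM in control libraries. Cd79b and Ms4a1 were also called lower in knockout-labelled than in control libraries (edgeR adjusted p = 0.0333 and 0.0362), where 10% of all genes were called lower. Ms4a1 was not called between transgenic and control libraries (edgeR adjusted p = 0.151). Of the remaining 4, Cd22 and Pax5 are described with no test. Cd22, an inhibitory receptor of B cells, was at 5.22, 1.20, 1.00, 0.932 and 0.668 CPM in transgenic replicates 1 to 5, and Pax5, the factor that sets B cell identity, at 5.02, 1.09, 0.695, 0.691 and 0.476 CPM. Both were thus highest in transgenic replicate 1, the library with the lowest kappa level of its group, and lowest in transgenic replicate 5, the library with the highest. In all other libraries Cd22 was at no more than 0.383 CPM and Pax5 at no more than 0.612 CPM. The 14 markers summed to 187.3 to 253.5 CPM in transgenic, 156.2 to 201.7 in knockout-labelled and 178.0 to 234.8 in control libraries, most of it from Cd37, which thymocytes also express, and none was at 0 throughout a group. The part of B cells in the kappa level was not tested.

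Of 14 genes of plasma cells and antibody secretion, 11 were tested, and 9 of these also passed the filter without the transgenic libraries. Of the 9, 5 rose against controls (beside 23% of all genes) and 2, Irf4 and Jchain, against knockout-labelled libraries (beside 1.07%). Mzb1, a chaperone of antibody-secreting cells that passed only through the transgenic libraries, was at 1.76, 0.976, 1.26, 1.81 and 2.05 CPM there and at no more than 0.199 CPM elsewhere. Irf4, a factor of plasma cell differentiation that activated T cells also express, was at 10.1 ± 2.96 CPM in transgenic and 2.67 ± 0.721 CPM in knockout-labelled libraries (log2 fold change 1.85, SE 0.22, edgeR adjusted p = 1.5e-04). Tnfrsf17, a receptor of plasma cells, was at no more than 0.213 CPM in any library, and Sdc1, a plasma cell surface proteoglycan, did not pass the test (log2 fold change against controls -0.22, SE 0.38, adjusted p = 0.677). The list summed to 173.2 to 190.9 CPM in transgenic, 152.2 to 194.2 in knockout-labelled and 141.0 to 149.2 in control libraries, with none at 0 throughout a group. Most of each sum came from Xbp1 and Tnfrsf13b, and edgeR called neither between groups. The part of the listed genes in the kappa level was not tested.

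Markers of other cells moved against controls as well. Of 8 myeloid and 8 dendritic cell markers, 5 of each also passed the filter without the transgenic libraries, and 3 and 4 of these rose in transgenic libraries against controls, beside 23% of all genes. Against knockout-labelled libraries edgeR called 0 of these 5 in each list, beside 1.07% of all genes called higher. Among them Csf1r, Lyz2, Bst2 and Siglech had an unadjusted p below 0.05. Nothing is read from the listed markers that passed the filter only through the transgenic libraries. Over all 8 of each list, the sums were 36.4 to 42.2 CPM (myeloid) and 48.8 to 109.1 CPM (dendritic) in transgenic libraries. They were 12.8 to 36.5 and 32.6 to 46.9 CPM in knockout-labelled libraries, and 15.1 to 22.7 and 19.9 to 51.5 CPM in controls. Most of each dendritic sum came from Bst2 and Ccr7. Bst2 was at 64.8 CPM in transgenic replicate 3 and at 31.9 CPM in control replicate 2, which had the highest dendritic sums of their groups. These sums therefore do not measure the number of dendritic cells. Cd74, the invariant chain of class II presentation, was at 27.1, 26.5 and 30.6 CPM in knockout-labelled replicates 1 to 3 and at 19.1 to 38.8 CPM in transgenic libraries. Those 3 knockout-labelled libraries, with Cd74 inside the range of the transgenic ones, had no more than 0.809 CPM of Igkv. Cd74 is in neither list, and the listed markers were mixed in these 3 libraries. Mpeg1 was at 11, 16.5 and 15.2 CPM there and at 10 to 16 CPM in transgenic libraries. Lyz2 was at 2.8, 2.34 and 2.03 CPM there and at 4.95 to 10.5 CPM in transgenic libraries. The part of these cells in the kappa level was not tested.

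**Figure D5:**
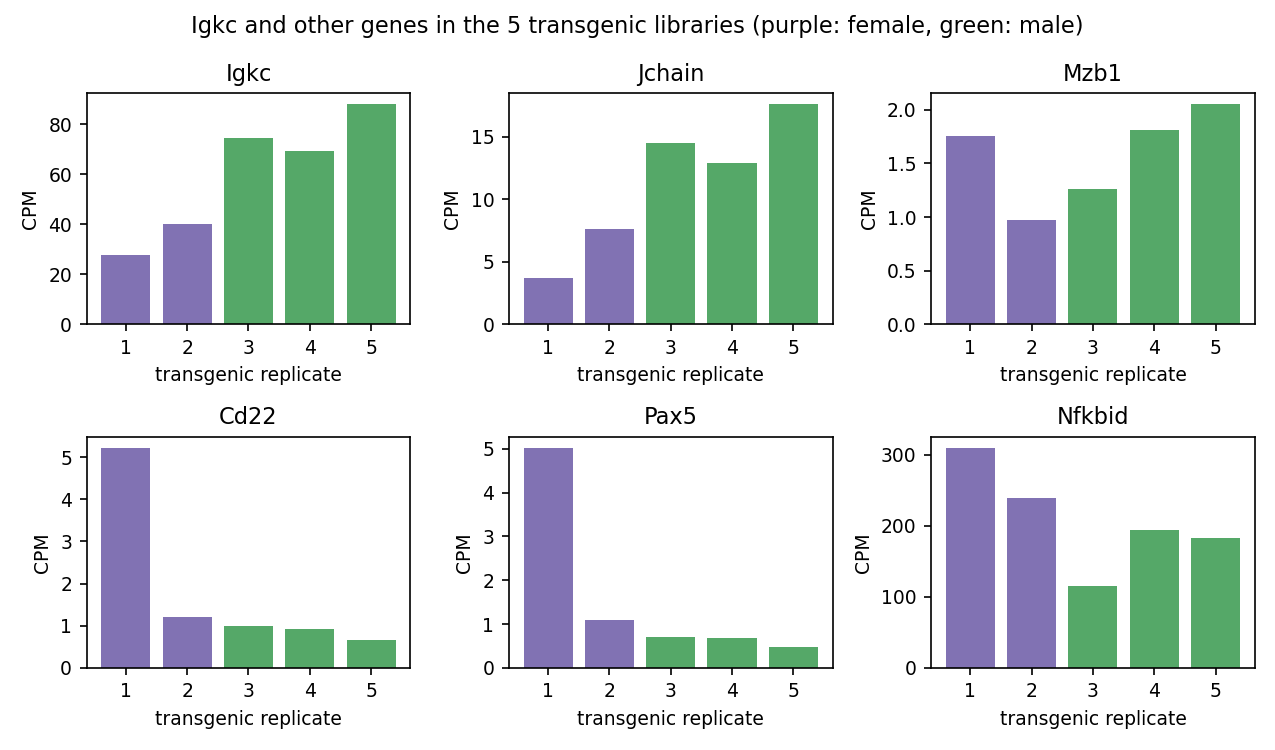
Levels (CPM, linear axes from 0) of Igkc, Jchain, Mzb1, Cd22, Pax5 and Nfkbid in transgenic replicates 1 to 5; purple bars are females and green bars males. Igkc and Jchain are lowest in replicate 1, at 27.6 and 3.71 CPM, where Cd22 and Pax5 are highest, at 5.22 and 5.02 CPM.

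Within the transgenic group the 3 males had more kappa transcript than both females. This contrast was not planned and was added after the data were seen. Igkc was at 74.7, 69.3 and 88.0 CPM in males and at 27.6 and 40.0 CPM in females, and the Igkv sums were likewise separate. None of the 5 members tested was called between the sexes by edgeR (0.0737% of all genes were), and 2 of 5, Igkv1-135 and Igkv12-44, had an unadjusted p below 0.05. For Igkc the log2 fold change of males over females was 1.19 (SE 0.56, adjusted p = 0.774). Nfkbid stood at 309.6 and 239 CPM in those females and at 114.7, 194.5 and 182.8 CPM in those males (edgeR adjusted p = 0.454). The 2 libraries with the least kappa transcript and the most Nfkbid were both females, so sex and Nfkbid level cannot be told apart. A link between the Nfkbid and kappa levels was not tested.

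Genes that rearrange and transcribe the locus were mostly not called between transgenic and knockout-labelled libraries. Of 15 recombination genes, edgeR called 0 in that contrast, where 1 had an unadjusted p below 0.05, beside 1.17% of all genes called in either direction. Rag1, a recombinase subunit, was at 505.5 ± 56.5 CPM in transgenic and 793.9 ± 242.0 CPM in knockout-labelled libraries (log2 fold change -0.58, SE 0.23, edgeR adjusted p = 0.4). Against controls, where 38.6% of all genes were called, 3 rose and 4 fell (15.6% of all genes fell), among them Rag1 (-0.95, SE 0.22, adjusted p = 0.00388). Of the 15 double-positive thymocyte markers, which include Rag1 and Rag2, 1 rose and 8 fell against controls, and edgeR called 0 against knockout-labelled libraries, where 3 had an unadjusted p below 0.05. Of 17 factors known to bind kappa promoters or enhancers, 14 passed the filter without the transgenic libraries, and of these Irf4 alone rose against knockout-labelled libraries, beside 1.07% of all genes. Its partner Spib, which passed only through the transgenic libraries, was at 1.24 to 3.32 CPM there and at no more than 0.639 CPM elsewhere. Against controls 3 of the 14 rose (Irf4, Pou2af1 and Irf8), beside 23% of all genes, and Rel, an NF-κB subunit, fell by 0.25 on the log2 scale. Between knockout-labelled and control libraries, where 16.4% of all genes rose and 10% fell, Pou2af1 and Irf8 rose and Rel fell. The part of these factors in the kappa level was not tested.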

How the data were processed

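The authors deposited, for each library, an estimated count per gene identifier, in which reads that fit several genes are divided between them. They also deposited TPM values, scaled per length to a sum of 1000000 per library, which were used here for levels between genes and as alternative weights. Libraries were KAPA stranded, per the labels' protocols. Bowtie 1.0.0, SAMtools 0.1.18, edgeR 3.24.3 and GRCm38 (mm10) are named in the submitters' processing notes, with no role; the sources used here do not give the counting program. Of counts above 0, 58.7% were whole within 1e-06. GENCODE's GRCm38 annotation supplied symbols, positions and sequences and named 46005 of 46517 identifiers; the other 512 held 0.171% of counts.

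Rounded counts went into edgeR 4.0.16 (R 4.3.3) with filterByExpr by group, TMM, a robust quasi-likelihood fit of group and sex on all 16 libraries (12 residual degrees of freedom), and Benjamini-Hochberg adjustment over 14933 genes. CPM use TMM-scaled totals. Single values were compared by exact permutation. Usage took estimated counts, with 95% Wilson intervals and a floor of 3 counts. The edgeR and usage steps were tested on simulated data. Same-numbered replicates are different mice and did not deviate together in every pair, so the numbers do not pair samples. Mouse identifiers show that replicates are separate mice.

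The members, lists and rules were chosen with earlier results of these data known. Named segments are those among the 3 most counted in any library with at least 50 Igkv counts or the 10 with the largest mean transgenic share; Igkv2-116, Igkv12-40, Igkv4-56, Igkv3-8, Igkv4-77, Igkv1-108, Igkv14-118-2, Igkv10-95, Igkv19-93 and Igkv17-127 were named after their values were seen. The 6 usage comparisons planned between transgenic and knockout-labelled libraries were not run, since no knockout-labelled library reached 50 Igkv counts; transgenic values are given with no test. Thymic epithelium (6 genes) and erythroid (6 genes) markers had no member called by edgeR in any comparison, with 1 epithelial gene at an unadjusted p below 0.05, in transgenic v control. Erythroid sums varied within groups, and were highest in control replicate 1 (130.8 CPM), knockout-labelled replicate 5 (62.4 CPM) and transgenic replicate 4 (66.9 CPM). Alternatives were RLE size factors, library totals, DESeq2 1.42.0, limma-voom (limma 3.58.1), other filters, no sex term, a replicate block, TPM weights, no pseudogenes, subgroups, other minima, and leaving out each library. Results for 1 gene are not reported here. For the gene lists, those that also pass the filter on control and knockout-labelled libraries alone are counted, a choice made after seeing the data.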

Additional observations from a re-analysis of the deposited data

Results flagged for a closer look

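Of 24 groups of values examined for a library far from the others, 3 were set apart by Dixon's 95% limit. Chance sets apart about 1 in 20 if values are normally distributed. The levels were examined as CPM, not on the log2 scale, and the Igkv and Igkc levels of a library are not independent. Control replicate 1 had a summed Igkv level of 2.11 CPM, with the next control at 0.607 CPM, and the gap was 0.73 of the range of the group. The same library had an Igkc level of 2.64 CPM, with the next control at 0.828 CPM, a gap of 0.716 of the range. Its erythroid markers summed to 130.8 CPM, against 7.25 to 10.5 CPM in the other controls. Whether this bears on its kappa level was not tested. Transgenic replicate 2 had an effective number of 18.3 Igkv segments, with the next transgenic library at 25.4, a gap of 0.785 of the range.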

How the results depend on the processing

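The differences of Igkv and Igkc between knockout-labelled and control libraries stayed without support under all 6 and 5 alternatives run and without any of the 11 libraries in turn (exact permutation p = 0.206 to 1 and 0.159 to 0.802). The Igkv difference ran from -0.09 to 0.68 and turned its sign in 2 settings, with a pseudocount of 1 (0) and without control replicate 5; Igkc ran from 0.22 to 0.97. The count of members called in the transgenic contrasts moved with the filter: with no filter 53 were called higher against controls and 40 against knockout-labelled libraries, and with at least 1 CPM in at least 5 libraries 1 in each. Leaving out a library gave 5 to 19 and 5 to 18, since a smaller group lowers the filter's minimum number of libraries. Between knockout-labelled and control libraries the count was 0 in every setting run, and nothing is read from it, since Igkc alone passed the filter without the transgenic libraries. The replicate block gave 0, 4 and 4 members called (0, 5 and 5 without it), and differences of 0.35 for Igkv and 0.65 for Igkc between knockout-labelled and control libraries; same-numbered samples share only a number. No paired analysis was possible for usage because no knockout-labelled library had enough Igkv counts. In transgenic libraries, collapsing segments to subgroups moved the effective number to 8.14, the largest share to 23.2% and the overlap to 75.0%. The ratio of Igkv to Igkc moved to 1.23 with TPM, 0.711 without pseudogenes and 0.714 with only segments of at least 5 counts. The shares of pseudogenes and inverted segments kept within 1 SD under the 3 and 4 alternatives run. Leaving out 1 transgenic library gave 24.0 to 26.2 effective segments. In control and knockout-labelled libraries, 1 to 55 Igkv counts limit what can be said of any segment.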
